A study of Mus musculus with 51 samples.

Results

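A set of 9 genes for epithelial transcription factors was followed across 14 groups of sorted mouse cells: the Grainyhead genes Grhl1, Grhl2 and Grhl3, the Ovol genes Ovol1 and Ovol2, the epithelial ETS genes Elf3, Elf5 and Ehf, and the zinc-finger gene Zfp750. They were found by symbol, 9 rows of the 52636 genes in the count table, and all 9 passed the filter on low counts in every comparison. RNA was sequenced in 51 libraries. WT is oesophagus of wild-type CD1 mice, sorted on low EpCAM (n = 6). SmoM2 is oesophagus of Krt5-SmoM2 CD1 mice, sorted on high EpCAM (n = 6); the SmoM2 transgene encodes Smoothened, through which Hedgehog signals pass, in a form that is always on, and Krt5 is a gene of basal squamous cells. K8YFP+ and K8YFP- are EpCAM-high cells of Krt5-SmoM2-Krt8YFP mice of mixed background with and without a fluorescent Krt8 reporter (n = 3 each). Sox9cKO is EpCAM-high oesophagus of Krt5-SmoM2-Sox9fl/fl mice (n = 4). Another 4 groups of Krt5-SmoM2 oesophagus are labelled 3w or 7w and sorted on high or low EpCAM (n = 4 each); the labels do not say from what the weeks are counted. The other groups carry Krt8YFP and no SmoM2. They are embryonic oesophagus at E13.5, sorted on EpCAM and YFP (n = 2), stomach and gut, both sorted on YFP (n = 2 each), the columnar part of the squamocolumnar junction, sorted on high EpCAM and YFP (n = 4), and its squamous part, sorted on high EpCAM without YFP (n = 3). Embryo, stomach, gut and the columnar group are of mixed background; no strain is given for the squamous, Sox9cKO, 3w and 7w groups.

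Grainyhead proteins bind DNA as dimers and drive genes of cell junctions and of the epidermal barrier; Grhl3 is required for that barrier in the embryo, and Grhl2 for closure of the neural tube and for adherens junction genes. Ovol proteins are zinc-finger repressors that hold epithelial cells in the epithelial state and act on mesenchymal regulators such as Zeb1. Elf3, Elf5 and Ehf form the epithelium-specific branch of the ETS family, and Zfp750 is a target of p63 that promotes terminal differentiation of squamous cells.

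Library totals ran from 1606571 to 12262365 counts, the lowest in K8YFP+. Values are CPM, read counts scaled to the library total, and errors are SD between libraries unless given as SE. Fold changes come from a model that rescales libraries by TMM, and they sat above log2 ratios of mean CPM by a median of 0.40 over the 9 genes in K8YFP+ against K8YFP- and 0.42 in K8YFP+ against junction columnar, and differed from them by -0.52 in embryo against WT and -0.31 between the junction groups. The sign differed for 2 folds that passed, both of Grhl2, and 5 that did not. With the Krt5, Krt14 and Trp63 counts summed, the 10 squamous groups outside the embryo stood at 1552 CPM or more per library, the embryo at 523 to 924, and the junction columnar, stomach and gut libraries at 57.0 or less, so that the labels and these markers point the same way. Sox9, the gene floxed in Sox9cKO, ran from 45.7 to 127 CPM there and from 72.7 to 194 in SmoM2; the ranges overlap, and reads from outside the deleted part of the gene are counted too. Smo reads, transgene and endogenous together, ran from 57.4 to 89.5 CPM in WT, 170.2 to 259 in SmoM2, 143 to 170.1 and 213 to 255 in the 3w and 7w EpCAM-high groups, and 71.7 to 81.8 and 92.3 to 100.5 in the EpCAM-low groups. The labels do not say whether libraries come from separate animals, so p-values measure the spread between libraries. Past a leading number, the raw names in the labels are the same for WT replicates 2, 3 and 5, and for 4 and 6. Counts of replicates 3 and 5, and of 4 and 6, were also close, so WT may hold fewer than 6 separate samples. Raw names in the labels start with a number that is 4, 5 or 6 in WT, 1 or 2 in SmoM2, 2 in Sox9cKO, 5 in the embryo, 6 in both K8YFP groups, stomach and gut, 9 in junction columnar, 10 in junction squamous, 11 at 3w and 12 at 7w; what it marks is not given.

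Each of the promoter stretches below is the sequence before a RefSeq start site, with bases inside exons of the same gene removed (GRCm38.p6, 5′ to 3′ on the gene strand). Of the 9 genes, 5 had an entry in the table used here. Ovol2, and another start of Elf5, left no stretch because all 250 bases lay inside exons of the same gene. Of the genes shown, Grhl1, Grhl3 and Elf5 were far higher in squamous than in junction columnar cells, whereas Elf3 was high in both. Capitals mark matches, on either strand, to GGAA (the core of ETS sites), CCAAT and GGGCGG (the GC box); ACCGGT, a core of Grainyhead sites, and CCGTTA, a core of Ovol sites, were searched too.
Grhl1 (chr12:24572037-24572282, plus strand): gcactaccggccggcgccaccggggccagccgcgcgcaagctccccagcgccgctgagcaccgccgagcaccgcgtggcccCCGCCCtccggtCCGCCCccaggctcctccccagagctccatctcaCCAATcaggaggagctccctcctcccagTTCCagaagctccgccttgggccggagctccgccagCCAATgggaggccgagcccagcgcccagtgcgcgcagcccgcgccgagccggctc
Grhl3 (chr4:135573633-135573882, minus strand): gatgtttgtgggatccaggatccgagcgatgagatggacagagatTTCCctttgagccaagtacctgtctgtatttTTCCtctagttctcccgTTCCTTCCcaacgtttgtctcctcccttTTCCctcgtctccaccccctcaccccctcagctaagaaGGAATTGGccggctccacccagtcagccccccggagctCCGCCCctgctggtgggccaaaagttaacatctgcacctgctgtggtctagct
Elf5 (chr2:103423818-103424061, plus strand): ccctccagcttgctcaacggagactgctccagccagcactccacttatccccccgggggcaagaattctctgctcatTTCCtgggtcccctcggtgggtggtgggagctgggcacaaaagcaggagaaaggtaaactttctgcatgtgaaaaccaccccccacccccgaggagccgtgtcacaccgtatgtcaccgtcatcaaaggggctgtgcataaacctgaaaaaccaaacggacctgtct
Elf3 (chr1:135258569-135258722, minus strand): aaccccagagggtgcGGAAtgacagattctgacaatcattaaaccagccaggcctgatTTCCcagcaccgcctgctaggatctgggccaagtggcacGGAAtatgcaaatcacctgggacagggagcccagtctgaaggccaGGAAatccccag

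The Grhl3 stretch of 250 bases held 8 matches, 6 of them to GGAA. The Elf3 stretch held 4 GGAA matches in 154 bases, the Elf5 stretch 1 in 244 bases, and the Grhl1 stretch shown 1 GGAA, 2 CCAAT and 2 GGGCGG matches in 246 bases. Grhl1 has another RefSeq start, at base 24580719, whose stretch of 250 bases is not shown. It held 4 matches, all to GGAA, and had a GC content of 52.0%. GC content of the stretches shown was 76.0% for Grhl1, 56.0% for Grhl3, 57.0% for Elf5 and 55.8% for Elf3, against a median of 52.4% over all 32851 promoters at 250 bases. None of the 4 stretches shown held ACCGGT or CCGTTA. Over all promoters, GGAA was present in 93.4%, CCAAT in 33.9%, GGGCGG in 32.7%, ACCGGT in 1.86% and CCGTTA in 2.18%, so a GGAA match is usual at this length. These are matches of letters, not binding sites.

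All 9 genes were counted in squamous libraries, but they fell into patterns that the plot of CPM by library shows. Grhl1, Grhl3, Ovol1, Elf5 and Zfp750 were low or near 0 in junction columnar, stomach and gut cells, with Ovol1 in gut as the exception. Grhl2 and Elf3 were present in every group. Ehf was high in squamous and junction columnar cells and low in embryo, stomach and gut. Ovol2 ran the other way from Grhl3, with its top levels in the 3 columnar groups.

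**Figure D1:**
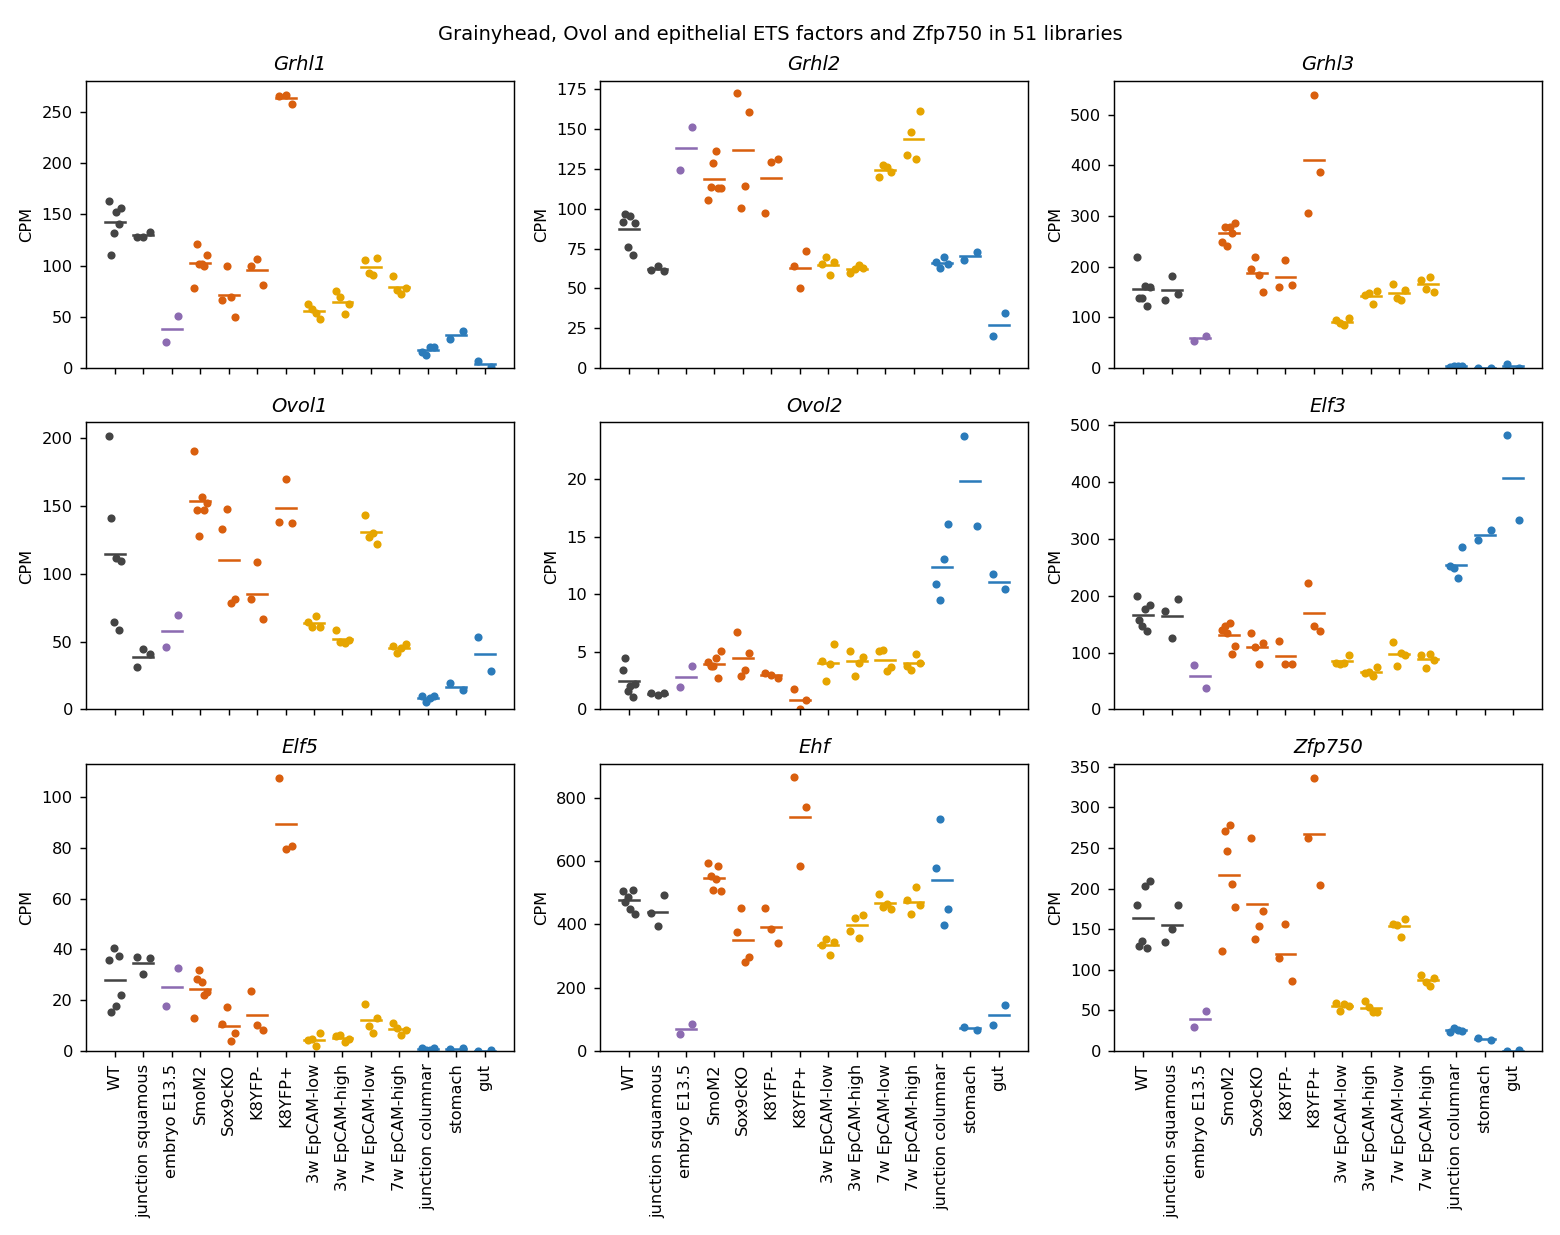
CPM of each gene (vertical axis, linear, from 0) in the 51 libraries of 14 groups; each point is a library and each bar a group mean. Grhl1, Grhl3, Elf5 and Zfp750 are near the axis in junction columnar, stomach and gut cells, where Ovol2 and Elf3 have their highest points.

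Grhl1, a regulator of desmosomal cadherin genes, was highest in K8YFP+ cells. The gene, ENSMUSG00000020656, lies at chr12:24572283-24617391 on the plus strand (GENCODE M21, GRCm38). Mean CPM were 264 ± 4.69 in K8YFP+, 142 ± 19.3 in WT, 129.6 ± 3.11 in junction squamous, 102 ± 14.3 in SmoM2 and 98.9 ± 8.50 in 7w EpCAM-low. Next came 95.8 ± 13.2 in K8YFP-, 79.2 ± 7.33 in 7w EpCAM-high, 71.3 ± 20.5 in Sox9cKO, 65.0 ± 9.81 in 3w EpCAM-high and 55.3 ± 6.39 in 3w EpCAM-low, and then 38.1 ± 18.5 in embryo, 32.5 ± 5.88 in stomach, 17.5 ± 4.06 in junction columnar and 3.94 ± 4.01 in gut. Between neighbours in this order, libraries overlapped except for K8YFP+ above WT, junction squamous above SmoM2, stomach above junction columnar and junction columnar above gut.

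Grhl2, tied to adherens junction genes, had the smallest ratio of highest to lowest group mean of the Grainyhead genes. The gene, ENSMUSG00000022286, lies at chr15:37233036-37363569 on the plus strand (GENCODE M21, GRCm38). Mean CPM were 144 ± 14.1 in 7w EpCAM-high, 138 ± 19.2 in embryo, 137 ± 35.2 in Sox9cKO, 124 ± 3.45 in 7w EpCAM-low and 119 ± 19.2 in K8YFP-. Next came 118 ± 11.5 in SmoM2, 87.1 ± 10.7 in WT, 70.5 ± 3.48 in stomach, 66.3 ± 2.84 in junction columnar and 65.0 ± 4.58 in 3w EpCAM-low, and then 62.8 ± 11.7 in K8YFP+, 62.5 ± 2.18 in 3w EpCAM-high, 62.2 ± 1.69 in junction squamous and 27.3 ± 10.4 in gut. Neighbouring groups overlapped in their Grhl2 values except for SmoM2 above WT and junction squamous above gut. The antisense gene Gm16136 covers 169 of the 8613 exon bases of Grhl2, and whether counting used strand is not given, so reads of that stretch cannot be told apart.

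Grhl3 spanned the widest range of the Grainyhead genes, from K8YFP+ cells to stomach. The gene, ENSMUSG00000037188, lies at chr4:135541888-135573630 on the minus strand (GENCODE M21, GRCm38). Mean CPM were 411 ± 118 in K8YFP+, 266 ± 17.7 in SmoM2, 187 ± 28.6 in Sox9cKO, 179 ± 29.0 in K8YFP- and 165 ± 13.6 in 7w EpCAM-high. Next came 156 ± 33.6 in WT, 154 ± 23.9 in junction squamous, 149 ± 14.5 in 7w EpCAM-low, 143 ± 11.0 in 3w EpCAM-high and 91.5 ± 6.12 in 3w EpCAM-low, and then 58.6 ± 7.62 in embryo, 4.16 ± 4.71 in gut, 3.73 ± 1.29 in junction columnar and 0.313 ± 0.443 in stomach. Apart from the pairs listed next, the Grhl3 values of neighbouring groups overlapped: K8YFP+ above SmoM2, SmoM2 above Sox9cKO, 3w EpCAM-high above 3w EpCAM-low, 3w EpCAM-low above embryo, embryo above gut and junction columnar above stomach. In the 2 stomach libraries it had 0 and 2 counts, which is under the floor of 3 counts over the group.

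Ovol1 was highest in SmoM2 and K8YFP+ and low in junction squamous cells. The gene, ENSMUSG00000024922, lies at chr19:5549136-5560646 on the minus strand (GENCODE M21, GRCm38). Mean CPM were 153 ± 20.6 in SmoM2, 149 ± 18.5 in K8YFP+, 131 ± 9.20 in 7w EpCAM-low, 114 ± 52.8 in WT and 110.2 ± 35.4 in Sox9cKO. Next came 85.4 ± 21.3 in K8YFP-, 63.7 ± 3.92 in 3w EpCAM-low, 57.8 ± 16.5 in embryo, 52.0 ± 4.20 in 3w EpCAM-high and 45.6 ± 2.68 in 7w EpCAM-high, and then 40.7 ± 17.5 in gut, 38.9 ± 6.67 in junction squamous, 16.9 ± 3.94 in stomach and 8.46 ± 2.22 in junction columnar. Between neighbours in this order, libraries overlapped except for 3w EpCAM-high above 7w EpCAM-high, junction squamous above stomach and stomach above junction columnar. Opposite-strand gene models overlap 690 (Gm31166) and 76 (AC126029.1) of its 3488 exon bases, and Gm31166 had 7074 counts over all libraries against 34153 for Ovol1.

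Ovol2 was at a few CPM in squamous groups and higher in all 3 columnar groups. The gene, ENSMUSG00000037279, lies at chr2:144305175-144332146 on the minus strand (GENCODE M21, GRCm38). Mean CPM were 19.9 ± 5.49 in stomach, 12.4 ± 2.86 in junction columnar, 11.1 ± 0.921 in gut, 4.50 ± 1.72 in Sox9cKO and 4.32 ± 0.928 in 7w EpCAM-low. Next came 4.17 ± 0.923 in 3w EpCAM-high, 4.07 ± 1.32 in 3w EpCAM-low, 4.04 ± 0.596 in 7w EpCAM-high, 3.99 ± 0.776 in SmoM2 and 2.97 ± 0.212 in K8YFP-, and then 2.85 ± 1.29 in embryo, 2.49 ± 1.24 in WT, 1.35 ± 0.109 in junction squamous and 0.859 ± 0.897 in K8YFP+. Neighbouring groups overlapped in their Ovol2 values except for gut above Sox9cKO. The opposite-strand gene 1700108N11Rik covers 359 of its 2113 exon bases, with 239 counts over all libraries against 1760 for Ovol2.

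Elf3, an ETS factor of simple and stratified epithelia, was highest in gut. The gene, ENSMUSG00000003051, lies at chr1:135253575-135258568 on the minus strand (GENCODE M21, GRCm38). Mean CPM were 407 ± 106 in gut, 306 ± 12.2 in stomach, 254 ± 22.5 in junction columnar, 169 ± 46.6 in K8YFP+ and 167 ± 23.1 in WT. Next came 164 ± 35.2 in junction squamous, 130.2 ± 21.6 in SmoM2, 109.6 ± 22.9 in Sox9cKO, 97.2 ± 17.1 in 7w EpCAM-low and 93.6 ± 23.6 in K8YFP-, and then 88.0 ± 11.2 in 7w EpCAM-high, 85.2 ± 7.26 in 3w EpCAM-low, 65.9 ± 6.38 in 3w EpCAM-high and 57.9 ± 28.8 in embryo. Apart from the pairs listed next, the Elf3 values of neighbouring groups overlapped: gut above stomach, stomach above junction columnar, junction columnar above K8YFP+ and 3w EpCAM-low above 3w EpCAM-high. Gm26642 on the other strand covers 162 of its 2217 exon bases.

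Elf5, known as a factor of mammary luminal and trophoblast cells, was highest in K8YFP+ cells. The gene, ENSMUSG00000027186, lies at chr2:103411688-103450989 on the plus strand (GENCODE M21, GRCm38). Mean CPM were 89.3 ± 15.9 in K8YFP+, 34.7 ± 3.81 in junction squamous, 28.1 ± 11.0 in WT, 25.1 ± 10.5 in embryo and 24.3 ± 6.60 in SmoM2. Next came 14.1 ± 8.36 in K8YFP-, 12.0 ± 4.88 in 7w EpCAM-low, 9.74 ± 5.72 in Sox9cKO, 8.66 ± 1.91 in 7w EpCAM-high and 5.07 ± 1.24 in 3w EpCAM-high, and then 4.49 ± 2.01 in 3w EpCAM-low, 0.954 ± 0.422 in stomach, 0.784 ± 0.342 in junction columnar and 0.138 ± 0.195 in gut. Between neighbours in this order, libraries overlapped except for K8YFP+ above junction squamous, 7w EpCAM-high above 3w EpCAM-high, 3w EpCAM-low above stomach and junction columnar above gut. Gut had 1 count of Elf5 over both libraries, which is under the floor of 3 counts.

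Ehf was highest in K8YFP+ cells and also high in SmoM2 and junction columnar cells. The gene, ENSMUSG00000012350, lies at chr2:103263433-103303278 on the minus strand (GENCODE M21, GRCm38). Mean CPM were 741 ± 144 in K8YFP+, 548 ± 36.7 in SmoM2, 540.1 ± 149.8 in junction columnar, 476 ± 30.8 in WT and 472 ± 35.7 in 7w EpCAM-high. Next came 466.2 ± 20.6 in 7w EpCAM-low, 441 ± 48.4 in junction squamous, 397 ± 35.4 in 3w EpCAM-high, 393 ± 55.6 in K8YFP- and 351 ± 78.7 in Sox9cKO, and then 334 ± 22.4 in 3w EpCAM-low, 114 ± 45.6 in gut, 71.3 ± 7.42 in stomach and 69.7 ± 22.4 in embryo. Neighbouring groups overlapped in their Ehf values except for 3w EpCAM-low above gut and gut above stomach. Its level in the embryo was close to that in stomach.

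Zfp750 was highest in K8YFP+ and SmoM2 cells and at 3 counts over both libraries in gut. The gene, ENSMUSG00000039238, lies at chr11:121510978-121519333 on the minus strand (GENCODE M21, GRCm38). Mean CPM were 268 ± 66.6 in K8YFP+, 217 ± 60.1 in SmoM2, 182 ± 55.5 in Sox9cKO, 164 ± 38.2 in WT and 155 ± 23.1 in junction squamous. Next came 154 ± 9.38 in 7w EpCAM-low, 119 ± 35.6 in K8YFP-, 87.2 ± 6.20 in 7w EpCAM-high, 55.6 ± 4.31 in 3w EpCAM-low and 53.1 ± 6.62 in 3w EpCAM-high, and then 39.3 ± 13.3 in embryo, 25.7 ± 1.98 in junction columnar, 14.4 ± 1.73 in stomach and 0.413 ± 0.584 in gut. Apart from the pairs listed next, the Zfp750 values of neighbouring groups overlapped: 7w EpCAM-high above 3w EpCAM-low, embryo above junction columnar, junction columnar above stomach and stomach above gut. It lies inside Tbcd on the opposite strand, with 0 shared exon bases.

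Levels of different genes were compared as shares of a family's CPM per kilobase of exon, given as mean percent ± SD. Among Grainyhead genes, Grhl3 made up 60.7% ± 3.07 in WT, 74.8% ± 1.71 in SmoM2 and 72.0% ± 5.87 in K8YFP+, but 10.9% ± 3.64 in junction columnar cells, where Grhl2 made up 63.4% ± 4.63. In the embryo Grhl2 held 36.7% ± 1.85 and Grhl3 48.1% ± 2.87. Ovol1 was 96.5% ± 0.858 of the Ovol sum in WT and 99.0% ± 1.05 in K8YFP+, against 29.2% ± 4.85 in junction columnar cells, 34.1% ± 0.997 in stomach and 67.7% ± 7.83 in gut. The ETS sum was shared by Elf3 (45.4% ± 4.50) and Ehf (51.8% ± 3.82) in WT, and was mostly Elf3 in stomach (91.4% ± 1.07) and gut (89.4% ± 6.08). Elf5 had its highest share in the embryo, 10.5% ± 5.91, with 6.82% ± 0.482 in K8YFP+ and 2.88% ± 1.12 in WT. In the bars of family make-up Grhl2 holds the largest Grainyhead share in junction columnar and stomach cells; its CPM was close in junction columnar (66.3 ± 2.84) and junction squamous cells (62.2 ± 1.69), while those of Grhl3 and Grhl1 were lower in the former.

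**Figure D2:**
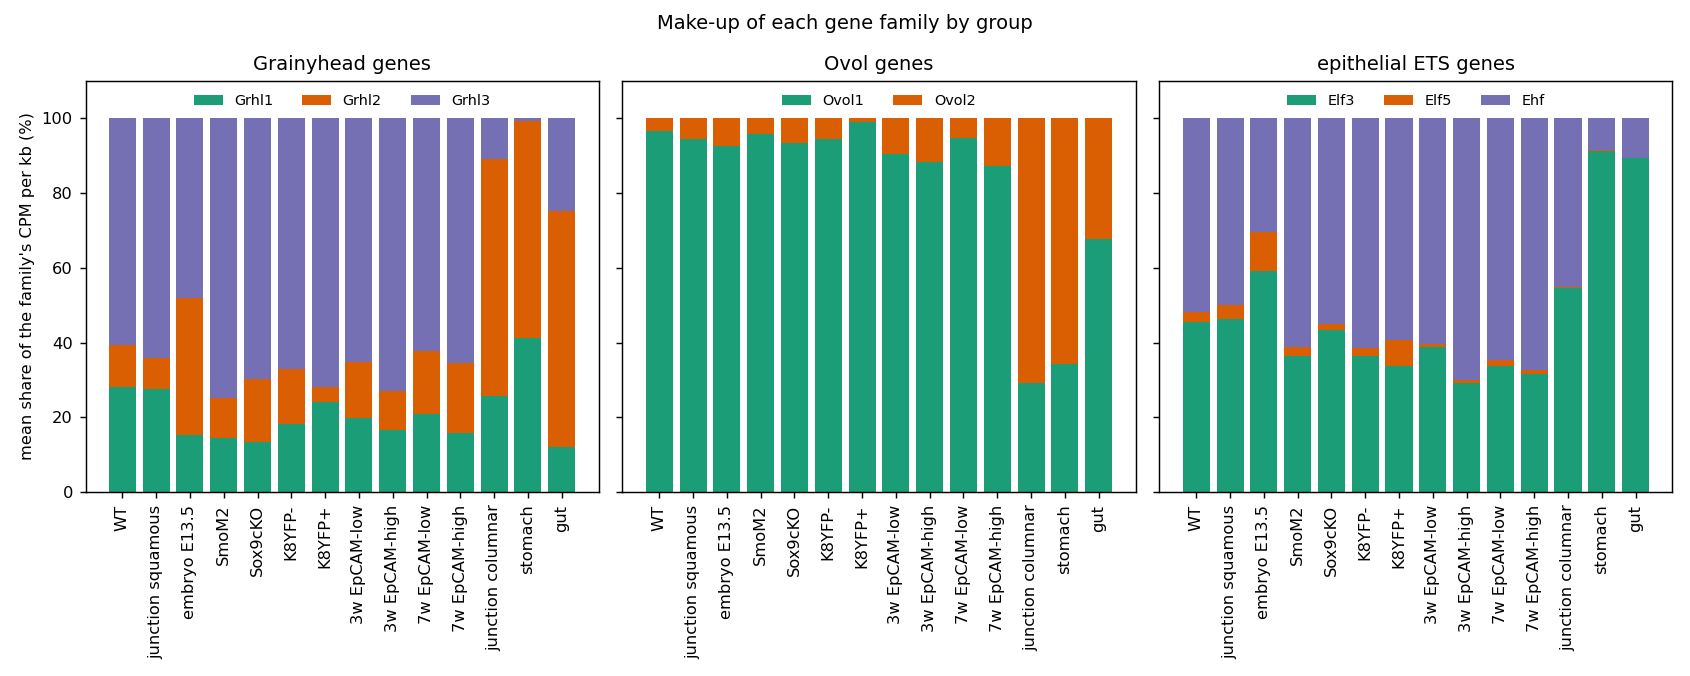
Mean share (percent, vertical axis) of each gene in its family's summed CPM per kilobase of exon in the 14 groups; stacked segments add to 100%. Grhl3 and Ovol1 fill most of the squamous bars, and Grhl2 and Ovol2 most of the junction columnar and stomach bars.

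SmoM2 cells had more Grhl3 and Grhl2 and less Grhl1 and Elf3 RNA than WT cells. Grhl3 CPM ran from 123 to 218 with a median of 149 in WT and from 241 to 285 with a median of 272 in SmoM2. The highest WT library lay below the lowest SmoM2 library, and the log2 fold was 0.64 ± 0.12, adjusted p = 0.00035. Grhl1 CPM ran from 110.2 to 163 with a median of 146 in WT and from 78.4 to 122 with a median of 102 in SmoM2, with overlap, and the fold was -0.61 ± 0.10, adjusted p = 0.000181. Elf3 fell by a similar amount (-0.48 ± 0.12, adjusted p = 0.00340), and Grhl2 rose (0.32 ± 0.09, adjusted p = 0.00888). The call of Grhl2 was lost with no filter on low counts (0.25, adjusted p = 0.0597) and with the close WT libraries summed (0.24, adjusted p = 0.0674).

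In this comparison 4 of 9 genes passed (2 higher, 2 lower), beside 49.3% of all 16224 genes tested (26.1% higher, 23.2% lower). The median log2 fold of the 9 genes was 0.27. The genes that did not pass had folds of 0.30 (Ovol1), 0.56 (Ovol2), -0.36 (Elf5), 0.07 (Ehf) and 0.27 (Zfp750). Leaving out WT replicate 1 brought Ovol1 past the threshold (0.54, adjusted p = 0.0379), as leaving out WT replicate 2 did Ovol2 (0.81, adjusted p = 0.0183) and SmoM2 replicate 1 Zfp750 (0.38, adjusted p = 0.0470). The squamous suprabasal keratins Krt4 and Krt13 summed to 9608 to 20572 CPM in WT and 3728 to 6592 in SmoM2, and columnar keratins to 5.07 to 7.55 and 22.6 to 69.5, both without overlap; their part in the results was not tested. Genotype, EpCAM gate and the number in the raw names differ together here and cannot be told apart. In such bulk samples fewer cells of a type and less RNA per cell cannot be told apart either. Of the genes of adhesion and barrier linked to these factors, 6 of 24 tested were higher and 5 lower (median log2 fold 0.00, all genes 0.01). In SmoM2 against WT, Cdsn (corneodesmosin) stood at 17.7 against 2.06 CPM (2.96), and Mal2, a transcytosis protein, at 119.8 against 245 CPM (-1.17). Of 10 mesenchymal genes 4 were tested, with 2 higher and 0 lower (median log2 fold 0.55, all genes 0.01). Among them Zeb2, a repressor of epithelial genes, stood at 34.2 against 0.858 CPM, a log2 fold of 5.19.

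K8YFP+ cells differed from K8YFP- cells of the same SmoM2 tissue in nearly the whole set. Elf5, Grhl1, Grhl3, Zfp750, Ehf, Elf3 and Ovol1 were higher in K8YFP+ and Grhl2 was lower; 8 of 9 genes passed (7 higher, 1 lower), beside 19.8% of all 15598 genes tested (12.8% higher, 6.98% lower). In CPM, the 3 K8YFP+ and 3 K8YFP- libraries did not overlap for any of the 9 genes, Ovol2 with its low counts among them. How many of all genes did so was not counted, so this is a description only. Elf5 stood at 108, 79.7 and 80.7 CPM in K8YFP+ and 23.7, 10.3 and 8.34 in K8YFP-, a log2 fold of 3.04 ± 0.43, adjusted p = 0.00585. Grhl1 stood at 266, 267 and 258 and 99.5, 107 and 81.1 CPM, a fold of 1.86 ± 0.16, adjusted p = 0.00154. Grhl3 stood at 306, 539 and 387 and 161, 212 and 163 CPM (1.62 ± 0.27, adjusted p = 0.00723). Zfp750 stood at 262, 337 and 204 and 114, 156 and 85.7 CPM (1.58 ± 0.29, adjusted p = 0.0118).

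The ETS genes rose together: Ehf stood at 867, 583 and 773 against 452, 384 and 342 CPM (1.29 ± 0.17, adjusted p = 0.00294) and Elf3 at 222, 147 and 137 against 121, 79.3 and 80.6 (1.23 ± 0.24, adjusted p = 0.0121). Ovol1 rose as well (1.202 ± 0.22, adjusted p = 0.00891). Grhl2 went the other way, at 64.3, 50.4 and 73.6 against 97.1, 129.5 and 131 CPM (-0.53 ± 0.15, adjusted p = 0.0432). Ovol2 stood at 1.79, 0 and 0.786 against 3.17, 3.00 and 2.74 CPM and did not pass (-1.07 ± 0.58, adjusted p = 0.219), with K8YFP+ counts of 12, 0 and 3. The Grhl2 call was lost when any of 5 of the 6 libraries was left out (adjusted p up to 0.137), all except K8YFP- replicate 1, and the Elf3 call without K8YFP- replicate 3 (1.11, adjusted p = 0.0569).

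Among genes of adhesion and barrier, 18 of 24 tested were higher and 0 lower (median log2 fold 1.63, all genes -0.03). In K8YFP+ against K8YFP-, Ppl (periplakin) stood at 1662 against 606 CPM, Evpl (envoplakin) at 1155 against 487 CPM and Rab25, an epithelial trafficking GTPase, at 239.6 against 113 CPM. Krt4 and Krt13 summed to 15307 to 24633 CPM in K8YFP+ and 4609.5 to 6829 in K8YFP-, and basal Krt5, Krt14 and Trp63 to 1552 to 2449 against 4499 to 7558. Columnar keratins (Krt8, Krt18, Krt19 and Krt20, 4 of 4 counted) summed to 34.6 to 206 against 14.2 to 21.2 CPM, without overlap. Endothelial markers did not overlap either, while fibroblast and muscle markers did. Fibroblast markers (7 of 7 counted) summed to 56.8 to 531 against 11.6 to 71.2 CPM, endothelial markers (5 of 5) to 26.4 to 117 against 10.8 to 19.3, and muscle markers (4 of 4) to 1.83 to 199.8 against 0.821 to 12.0. Their part in the result was not tested. Krt8 itself ran from 10.2 to 39.8 CPM in K8YFP+ and from 0.235 to 3.32 in K8YFP-, and from 511 to 1239 in junction columnar cells.

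Between Sox9cKO and SmoM2 cells only Ehf passed, in a comparison where few of all genes did. 1 of 9 genes passed (0 higher, 1 lower), beside 2.57% of all 17047 genes tested (1.16% higher, 1.41% lower). Ehf CPM were 376, 452, 282 and 295 in Sox9cKO and ran from 505 to 593 with a median of 548 in SmoM2, without overlap, and the log2 fold was -0.59 ± 0.15, adjusted p = 0.0494. This call did not pass with relative log expression scaling (-0.59, adjusted p = 0.0524), with the replicate block (-0.63, adjusted p = 0.127) or when any 1 library other than Sox9cKO replicate 2 was left out (adjusted p up to 0.147). Elf5 CPM were 10.7, 17.2, 3.82 and 7.25 in Sox9cKO and ran from 13.1 to 32.1 with a median of 25.2 in SmoM2. Its fold of -1.25 ± 0.34, adjusted p = 0.0766 did not pass, but did without Sox9cKO replicate 2 (-1.70, adjusted p = 0.00521), when 5 of 9 genes passed. Over all genes, fits without 1 library gave 190 to 2114 passing, against 438 in the main fit. The Elf5 fold passed without SmoM2 replicate 1 too, which leaves libraries whose raw names all start with 2 (-1.36, adjusted p = 0.0467). In those libraries Ehf gave -0.54, adjusted p = 0.0700. Elf5 also passed with DESeq2 (-1.25, adjusted p = 0.00741) and in the fit of all 14 groups (-1.23, adjusted p = 0.0179). Grhl3, at 196, 219, 184 and 150.3 CPM in Sox9cKO, lay below every SmoM2 library without passing (-0.46 ± 0.12, adjusted p = 0.0657), but passed with DESeq2 (-0.45, adjusted p = 0.0148). Columnar keratins (4 of 4 counted) summed to 10.9 to 13.03 CPM in Sox9cKO and 22.6 to 69.5 in SmoM2, without overlap; their part in the result was not tested. Of adhesion and barrier genes, 0 of 24 tested were higher and 2 lower (median log2 fold -0.08, all genes 0.00), and Tmprss4, a membrane protease, stood at 78.8 against 132 CPM in Sox9cKO against SmoM2.

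The EpCAM-low SmoM2 groups share their gate with WT. At 3w the set was low: 8 of 9 genes passed (0 higher, 8 lower), beside 47.1% of all 17263 genes tested (22.9% higher, 24.2% lower). At 7w fewer genes differed from WT, and 4 of 9 genes passed (1 higher, 3 lower), beside 40.1% of all 17263 genes tested (19.2% higher, 20.8% lower). Zfp750 CPM were 59.6, 49.6, 57.5 and 55.5 at 3w, 156, 155, 140.4 and 163 at 7w and ran from 127 to 209 with a median of 158 in WT. Every 3w library lay below every WT library, whereas the 7w libraries lay within the WT range; the log2 folds were -1.61 ± 0.12, adjusted p = 2.71e-10 at 3w and -0.21 ± 0.11, adjusted p = 0.150 at 7w. Elf5 CPM were 4.40, 4.58, 2.02 and 6.94 at 3w and 18.4, 9.68, 7.04 and 13.1 at 7w, and ran from 15.2 to 40.4 with a median of 28.9 in WT. It was lower at both times (-2.74 ± 0.37, adjusted p = 6e-06 at 3w and -1.34 ± 0.32, adjusted p = 0.00275 at 7w). Grhl1 and Elf3 were also below WT at both times, with folds of -1.42 and -0.64 for Grhl1 and of -1.03 and -0.89 for Elf3.

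Grhl2 changed sides: CPM were 65.3, 69.6, 58.7 and 66.4 at 3w and 120.0, 128, 126 and 123 at 7w, and ran from 71.3 to 96.9 with a median of 91.5 in WT. All 3w libraries lay below the WT range and all 7w libraries above it (-0.48 ± 0.08, adjusted p = 5.57e-05 at 3w and 0.40 ± 0.08, adjusted p = 0.00045 at 7w). Grhl3, Ovol1 and Ehf were lower than WT at 3w, with folds of -0.84, -0.91 and -0.57, and did not pass at 7w, with -0.19, 0.07 and -0.15. Ovol2 gave 0.66 and 0.69 and passed at neither time (adjusted p = 0.0609 and 0.0604); it passed at both without WT replicate 1 or without WT replicate 2 (at 3w 0.92, adjusted p = 0.00638 without replicate 2). Smo counts in the 3w EpCAM-low libraries overlapped those in WT, as given above. Krt4 and Krt13 summed to 4602 to 5280.3 CPM at 3w, below every WT library (9608 to 20572), and to 11871 to 13695 at 7w, within the WT range; their part in the result was not tested. Raw-name number and stated strain differ with genotype here and cannot be told apart from it. Of adhesion and barrier genes, 1 of 24 tested were higher and 20 lower (median log2 fold -1.21, all genes 0.01) at 3w, and 0 of 24 tested were higher and 12 lower (median log2 fold -0.52, all genes 0.01) at 7w. The plot of EpCAM-low folds shows the 3w points further from 0 than the 7w points for all genes but Ovol2.

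**Figure D3:**
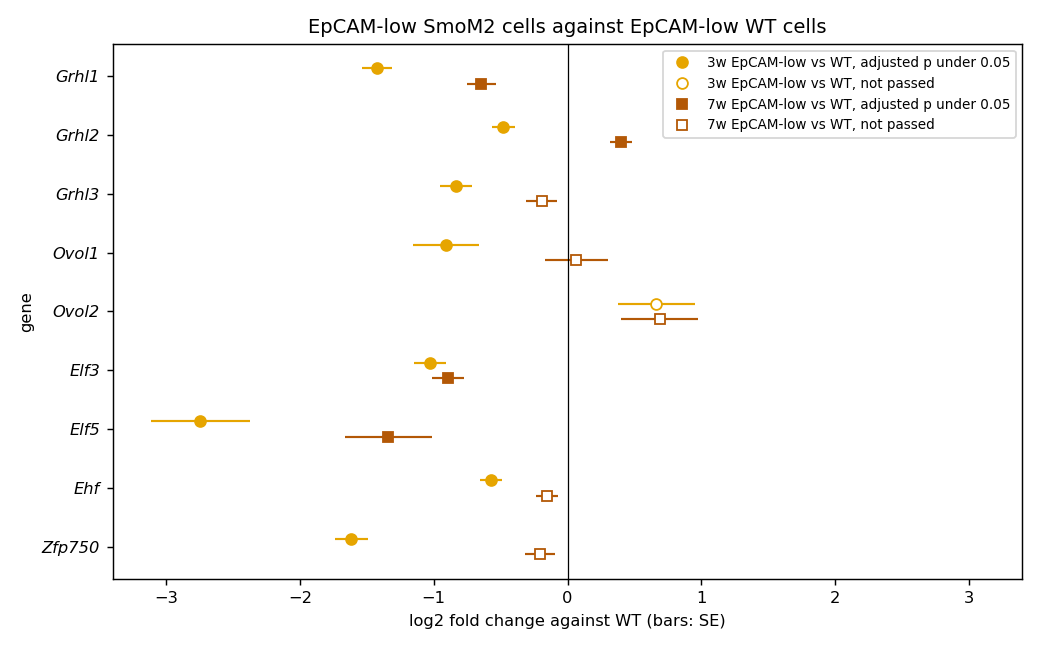
log2 fold change (horizontal axis) of each gene in 3w and 7w EpCAM-low SmoM2 cells against EpCAM-low WT cells; points are fitted folds, bars SE, filled points passed at an adjusted p under 0.05. Grhl2 lies left of 0 at 3w (-0.48) and right of 0 at 7w (0.40).

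Compared directly, 7w EpCAM-low cells had more of most of these RNAs than 3w EpCAM-low cells: 7 of 9 genes passed (7 higher, 0 lower), beside 37.7% of all 17263 genes tested (19.4% higher, 18.3% lower). Zfp750 rose by 1.41 ± 0.13, adjusted p = 1.97e-08 on the log2 scale and Elf5 by 1.403 ± 0.41, adjusted p = 0.0105. Ovol1 rose from 64.8, 60.8, 68.8 and 60.5 CPM to 143, 127, 129.7 and 122 (0.97 ± 0.27, adjusted p = 0.00726), and the libraries did not overlap. Grhl2, Grhl1, Grhl3 and Ehf rose by 0.88, 0.78, 0.64 and 0.42. Elf3 (0.13) and Ovol2 (0.03) did not pass. Without 7w EpCAM-low replicate 1 the Elf5 call was lost (1.12, adjusted p = 0.0533). In EpCAM-high cells 3 of 9 genes passed (3 higher, 0 lower), beside 41.0% of all 17263 genes tested (21.8% higher, 19.2% lower): Grhl2 (1.15 ± 0.09, adjusted p = 2.11e-09), Zfp750 (0.66 ± 0.13, adjusted p = 0.000242) and Elf3 (0.37 ± 0.13, adjusted p = 0.0252). Grhl2 stood at 59.8, 62.2, 65.0 and 63.1 CPM at 3w and 134, 149, 131 and 161 at 7w in that gate, with no overlap. The Elf3 call was lost without 3w EpCAM-high replicate 1 or 3 or 7w EpCAM-high replicate 1 or 3 (adjusted p up to 0.0793). It was also lost in the fit of all 14 groups (0.39, adjusted p = 0.132). Raw-name numbers differ with time, so they cannot be told apart from it. Krt4 and Krt13 summed to 4602 to 5280.3 CPM at 3w and 11871 to 13695 at 7w in EpCAM-low cells and to 2422 to 2764 and 3582 to 5059.5 in EpCAM-high cells; their part in the result was not tested. For the adhesion and barrier list, 14 of 24 tested were higher and 4 lower (median log2 fold 0.80, all genes 0.02) in EpCAM-low cells.

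Between the gates, Grhl3 and Elf3 passed at 3w, and Ovol1, Zfp750 and Grhl1 at 7w. At 3w 2 of 9 genes passed (1 higher, 1 lower), beside 15.0% of all 17263 genes tested (7.33% higher, 7.69% lower). Grhl3 stood at 144, 148, 127 and 152 CPM in EpCAM-high and 94.1, 88.9, 84.4 and 98.5 in EpCAM-low cells, without overlap (0.59 ± 0.13, adjusted p = 0.00243). Elf3 was lower in EpCAM-high cells (-0.42 ± 0.13, adjusted p = 0.0251), a call lost without EpCAM-low replicate 4 (-0.35, adjusted p = 0.0917) and without EpCAM-high replicate 1 or 3. Neither Grhl3 (0.60, adjusted p = 0.0765) nor Elf3 (-0.41, adjusted p = 0.237) passed in the fit of all 14 groups. At 7w 3 of 9 genes passed (0 higher, 3 lower), beside 32.1% of all 17263 genes tested (15.5% higher, 16.7% lower). Ovol1 stood at 46.8, 41.9, 45.5 and 48.1 CPM in EpCAM-high and 143, 127, 129.7 and 122 in EpCAM-low cells, the largest gap between the gates in the set (-1.56 ± 0.27, adjusted p = 0.000168). Zfp750 stood at 93.9, 84.9, 79.7 and 90.1 and 156, 155, 140.4 and 163 CPM (-0.86 ± 0.13, adjusted p = 6.38e-06), again without overlap. Grhl1 was lower by less (-0.37 ± 0.12, adjusted p = 0.0161). This call was lost without 7w EpCAM-low replicate 4 (-0.31, adjusted p = 0.0671) and in the fit of all 14 groups (-0.35, adjusted p = 0.228). At 3w Krt4 and Krt13 summed to 2422 to 2764 CPM in EpCAM-high and 4602 to 5280.3 in EpCAM-low cells. At 7w they summed to 3582 to 5059.5 and 11871 to 13695, both times without overlap. Smo reads differed between the gates too, as given above. The part of these in the gate differences and their change with time was not tested.

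Whether the gate difference itself changed with time was tested by the interaction, for which 1 of 9 genes passed (0 higher, 1 lower), beside 2.38% of all 17263 genes tested (1.58% higher, 0.799% lower). Zfp750 gave -0.75 ± 0.18, adjusted p = 0.0231, from a gate fold of -0.12 at 3w and -0.86 at 7w. The call was lost when any of 5 libraries was left out (3w EpCAM-high replicate 1, 3w EpCAM-low replicate 2, 7w EpCAM-high replicates 2 and 3, and 7w EpCAM-low replicate 4; adjusted p up to 0.0679). Zfp750 did not pass in the fit of all 14 groups either (-0.74, adjusted p = 0.457). Ovol1 gave a larger value without passing (-1.22 ± 0.38, adjusted p = 0.115). It passed with the replicate block (-1.203, adjusted p = 0.0401), as did Grhl1 (-0.54, adjusted p = 0.0337).

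EpCAM-high SmoM2 cells of the time series stood apart from the SmoM2 group, although both carry Krt5-SmoM2 and were sorted on high EpCAM. Against WT, 7 of 9 genes passed (0 higher, 7 lower), beside 58.7% of all 17263 genes tested (28.1% higher, 30.5% lower) at 3w, and 6 of 9 genes passed (1 higher, 5 lower), beside 57.3% of all 17263 genes tested (27.6% higher, 29.7% lower) at 7w. These comparisons share the WT libraries with the SmoM2 comparison above, so the folds are set side by side. Ovol1 gave 0.30 in SmoM2, -1.25 at 3w and -1.50 at 7w. Zfp750 gave 0.27, -1.73 and -1.07, Grhl3 0.64, -0.25 and -0.09, and Elf5 -0.36, -2.59 and -1.88.

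The groups were then compared directly, a comparison chosen after these values were seen. SmoM2 was higher than 3w EpCAM-high cells in 8 of the 9 genes, and than 7w EpCAM-high cells in 5. Against 3w 8 of 9 genes passed (8 higher, 0 lower), beside 42.0% of all 22370 genes tested (24.0% higher, 18.0% lower). Against 7w 6 of 9 genes passed (5 higher, 1 lower), beside 25.2% of all 22370 genes tested (14.1% higher, 11.1% lower). Zfp750 CPM were 62.0, 54.1, 48.1 and 48.0 at 3w and 93.9, 84.9, 79.7 and 90.1 at 7w and ran from 123 to 278 with a median of 226 in SmoM2. No time-series library reached the SmoM2 range, and the folds were 1.99 ± 0.19, adjusted p = 1.21e-10 and 1.30 ± 0.19, adjusted p = 1.57e-06. Ovol1 CPM were 58.2, 49.6, 49.2 and 51.1 at 3w and 46.8, 41.9, 45.5 and 48.1 at 7w, and ran from 128 to 190.2 with a median of 149 in SmoM2 (1.53 ± 0.24, adjusted p = 2.05e-06 and 1.75 ± 0.24, adjusted p = 1.01e-06). Grhl2 was lower in SmoM2 than at 7w (-0.28 ± 0.10, adjusted p = 0.0415), which did not pass with the replicate block (-0.23, adjusted p = 0.120), with no filter, or without 7w EpCAM-high replicate 2 or 4. Without 7w EpCAM-high replicate 2 the Elf3 call was lost (0.47, adjusted p = 0.0787), and without 3w EpCAM-high replicate 3 the Ehf call against 3w (0.36, adjusted p = 0.0638). Krt4 and Krt13 summed to 3728 to 6592 CPM in SmoM2, 2422 to 2764 at 3w, without overlap, and 3582 to 5059.5 at 7w, with overlap. Fibroblast markers (7 of 7 counted in each) summed to 17.7 to 30.4, 32.5 to 51.1 and 33.6 to 45.8, lower in every SmoM2 library; the part of these markers in the result was not tested. The labels give no time and the CD1 strain for SmoM2, and a time and no strain for the others; raw-name numbers differ as well, and these cannot be told apart. Of adhesion and barrier genes, 17 of 25 tested were higher and 0 lower (median log2 fold 0.93, all genes 0.05) against 3w and 11 of 25 tested were higher and 0 lower (median log2 fold 0.59, all genes 0.04) against 7w.

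Columnar and squamous cells of the junction had their largest folds in Grhl3 and Elf5, both lower in columnar cells, while Ovol2 was higher there. In all, 8 of 9 genes passed (2 higher, 6 lower), beside 74.3% of all 17185 genes tested (39.2% higher, 35.1% lower). Grhl3 stood at 1.84, 4.42, 3.97 and 4.70 CPM in columnar and 135, 181 and 146 in squamous libraries, a log2 fold of -5.69 ± 0.21, adjusted p = 1.68e-09. Elf5 stood at 1.08, 0.510, 0.467 and 1.08 and 37.0, 30.3 and 36.8 CPM (-5.70 ± 0.22, adjusted p = 1.17e-10). Grhl1 (-3.21 ± 0.14, adjusted p = 4.82e-10), Zfp750 (-2.90 ± 0.12, adjusted p = 1.52e-10) and Ovol1 (-2.51 ± 0.19, adjusted p = 9.6e-08) were lower in columnar cells too. No library of one kind reached the other's range for these 5 genes. How many of all genes stood apart this way was not counted, so this is a description only. Ovol2 was the reverse, at 10.9, 9.53, 13.1 and 16.1 CPM in columnar and 1.41, 1.23 and 1.43 in squamous libraries (2.86 ± 0.27, adjusted p = 6.97e-07).

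Elf3 stood at 252, 248, 231 and 285 against 172, 125 and 194 CPM; its fold of 0.33 ± 0.13, adjusted p = 0.0337 was lost without columnar replicate 4, squamous replicate 1 or squamous replicate 2 (adjusted p up to 0.201) and in the fit of all 14 groups (0.36, adjusted p = 0.128). Grhl2 was close in both (-0.22 ± 0.09, adjusted p = 0.0398), with a log2 ratio of mean CPM of the other sign (0.09), and its call was lost in 5 of the 7 fits without 1 library (all but columnar replicate 3 and squamous replicate 3), with no filter, with DESeq2, with the replicate block and in the fit of all 14 groups (adjusted p up to 0.200). Ehf did not pass (-0.01 ± 0.20, adjusted p = 0.952) and its columnar libraries were spread, at 579, 734, 399 and 448 CPM. In the adhesion and barrier list, 6 of 24 tested were higher and 18 lower (median log2 fold -1.31, all genes 0.08). In columnar against squamous cells, Tgm1 (a transglutaminase of the cornified envelope) stood at 0.217 against 863 CPM and Ppl at 39.6 against 337 CPM. Of squamous regulators, 1 of 14 tested were higher and 11 lower (median log2 fold -2.97, all genes 0.08), with Klf4 at 216 against 1083 CPM. The relative Tfcp2l1 stood at 178 against 10.7 CPM. Immune markers summed to 58.1 to 118 CPM in columnar libraries (6 of 7 counted) and 14.97 to 24.9 in squamous libraries (7 of 7), which was not tested for its part in the result. Raw-name numbers are 9 and 10, which cannot be told apart from the cell type.

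Though both were sorted on Krt8-YFP, K8YFP+ SmoM2 cells and junction columnar cells differed in most of these genes. 8 of 9 genes passed (7 higher, 1 lower), beside 60.6% of all 22370 genes tested (27.3% higher, 33.3% lower). K8YFP+ cells were higher in Grhl3 (7.23 ± 0.29, adjusted p = 2.78e-24), Elf5 (7.18 ± 0.52, adjusted p = 2.93e-15), Ovol1 (4.55 ± 0.32, adjusted p = 5.39e-16), Grhl1 (4.34 ± 0.23, adjusted p = 3.09e-20) and Zfp750 (3.80 ± 0.23, adjusted p = 2.99e-18). Ehf (0.87) and Grhl2 (0.35) passed with smaller folds. For Grhl2 the log2 ratio of mean CPM had the other sign (-0.08), and the call was lost without K8YFP+ replicate 3 (0.29, adjusted p = 0.100) and with no filter. Ovol2 was lower (-3.00 ± 0.43, adjusted p = 5.93e-08). Elf3 did not pass (-0.17 ± 0.21, adjusted p = 0.492). The plot of both contrasts sets the 5 squamous-high genes in the lower right, higher with the reporter and lower in columnar cells; the contrasts share no library. Fibroblast markers (7 of 7 counted in both) summed to 13.4 to 39.1 CPM in junction columnar libraries against the K8YFP+ range above. SmoM2 genotype, site and raw-name number differ together here and cannot be told apart.

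**Figure D4:**
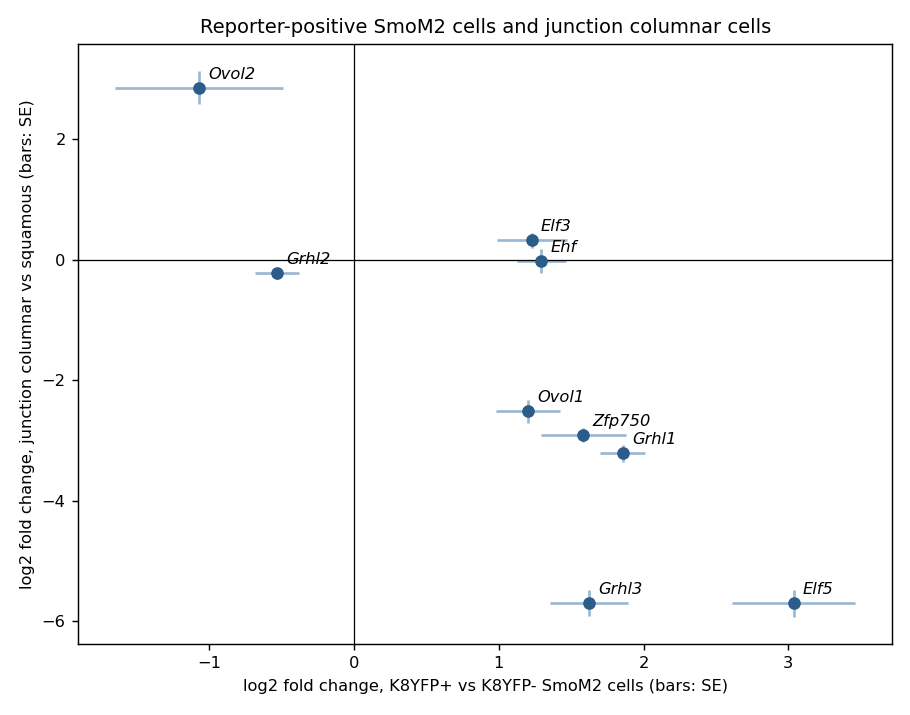
log2 fold change of each gene in K8YFP+ against K8YFP- SmoM2 cells (horizontal axis) and in junction columnar against junction squamous cells (vertical axis); bars are SE. Elf5, at 3.04 and -5.70, and Ovol2, at -1.07 and 2.86, lie at opposite corners.

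Among columnar tissues the set also differed. Junction columnar cells had far more Ehf than stomach, at 579, 734, 399 and 448 against 76.6 and 66.1 CPM (2.70 ± 0.21, adjusted p = 9.28e-14), and less Grhl1 (-1.11 ± 0.26, adjusted p = 0.000819), Ovol1 (-1.23 ± 0.37, adjusted p = 0.00800) and Ovol2 (-0.91 ± 0.32, adjusted p = 0.0269). Grhl3 had 81 against 2 counts in all, a ratio of CPM of 19.7 (95% exact binomial interval, counting error only, 5.29 to 166). With Grhl3 counted as higher, 5 of 9 genes passed (2 higher, 3 lower), beside 31.7% of all 22370 genes tested (18.4% higher, 13.4% lower). Without stomach replicate 1, which leaves 1 stomach library assumed to vary like the other groups, 2 genes passed, and Ovol1 (-1.02, adjusted p = 0.189), Ovol2 (-0.65, adjusted p = 0.345) and Grhl3 (adjusted p = 0.109) did not; Ovol2 was also lost without junction columnar replicate 1 or 2. Basal squamous markers summed to 15.7 to 56.4 CPM in junction columnar libraries (3 of 3 counted) and 3.93 to 12.2 in stomach (2 of 3), and immune markers to 58.1 to 118 (6 of 7) and 3.76 to 7.08 (4 of 7), both without overlap; their part in the result was not tested. Of adhesion and barrier genes, 3 of 25 tested were higher and 8 lower (median log2 fold -0.43, all genes 0.07). Site, sort gate and raw-name number differ together between these groups and cannot be told apart.

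Gut had less Grhl1 and Grhl2 and more Ovol1, Elf3 and Ehf than stomach. Grhl2 stood at 19.96 and 34.7 CPM in gut and 68.1 and 73.0 in stomach (-1.14 ± 0.18, adjusted p = 1.97e-06), and Elf3 at 482 and 332 and 297 and 314 (0.68 ± 0.27, adjusted p = 0.0456). Ovol1 stood at 53.1 and 28.4 and 19.7 and 14.1 CPM (1.52 ± 0.41, adjusted p = 0.00313). Zfp750 had 3 against 161 counts in all, a ratio of CPM of 0.0313 (95% exact binomial interval, counting error only, 0.00639 to 0.0932), and Grhl3 had 24 against 2 counts in all, a ratio of CPM of 20.2 (95% exact binomial interval, counting error only, 5.01 to 176). Grhl1 gave -2.88 ± 0.41, adjusted p = 2.16e-07 and Ehf 0.89 ± 0.22, adjusted p = 0.00143. The gut libraries were unlike each other: replicate 1 held 6.77 CPM of Grhl1, 7.49 of Grhl3 and 18.9 of Krt5, and replicate 2 held 1.10, 0.826 and 2.20. Although 7 of 9 genes passed (4 higher, 3 lower), beside 30.9% of all 22370 genes tested (15.6% higher, 15.3% lower), 4 passed without gut replicate 1, and Ovol1 (0.81, adjusted p = 0.245), Elf3 (0.20, adjusted p = 0.722) and Grhl3 (adjusted p = 0.266), which has 21 of its 24 gut counts in that library, did not. When these groups were fitted alone, 1 passed, and 2409 genes did in all, in place of 6903. The Elf3 call was also lost without either stomach library, and the Ehf call without gut replicate 2 (0.58, adjusted p = 0.111). Endothelial markers summed to 14.97 to 70.5 CPM in gut (5 of 5 counted) and 8.0 to 10.0 in stomach (3 of 5), and fibroblast markers to 3.92 to 117 (7 of 7) and 5.64 to 5.90 (6 of 7); their part was not tested.

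In squamous cells of the junction only Ovol1 and Grhl2 passed against WT: 2 of 9 genes passed (0 higher, 2 lower), beside 30.4% of all 22370 genes tested (16.2% higher, 14.2% lower). Ovol1 CPM were 31.5, 44.4 and 40.8 at the junction and ran from 58.4 to 202 with a median of 111 in WT, without overlap (-1.55 ± 0.27, adjusted p = 2.02e-05). Grhl2 CPM were 61.6, 64.1 and 60.9 and ran from 71.3 to 96.9 with a median of 91.5 in WT, also without overlap (-0.47 ± 0.12, adjusted p = 0.00206). The other 7 folds ran from -0.84 (Ovol2) to 0.31 (Elf5), and Ovol2 passed with the close WT libraries summed (-1.002, adjusted p = 0.0469). Krt4 and Krt13 summed to 1335 to 1611 CPM at the junction, below the WT range given above; the part of this in the result was not tested. Gate, site and raw-name number differ together and cannot be told apart.

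The E13.5 oesophagus had less Ehf, Zfp750, Grhl1, Elf3, Grhl3 and Ovol1 RNA than WT, while the folds of Grhl2, Elf5 and Ovol2 did not pass. 6 of 9 genes passed (0 higher, 6 lower), beside 63.8% of all 22370 genes tested (36.0% higher, 27.8% lower). Ehf stood at 53.8 and 85.5 CPM in the embryo and ran from 432 to 509 with a median of 479 in WT, a log2 fold of -3.30 ± 0.22, adjusted p = 1.32e-17. Zfp750 (-2.58 ± 0.27, adjusted p = 3.89e-11), Grhl1 (-2.43 ± 0.26, adjusted p = 7.24e-11), Elf3 (-2.04 ± 0.25, adjusted p = 1.76e-09), Grhl3 (-1.94 ± 0.27, adjusted p = 3.17e-08) and Ovol1 (-1.51 ± 0.31, adjusted p = 6.2e-05) were lower too. Grhl2 stood at 124 and 152 CPM, above every WT library in CPM, but its fold was 0.14 ± 0.13, adjusted p = 0.349. Elf5 gave -0.70 ± 0.40, adjusted p = 0.126 and Ovol2 -0.31 ± 0.36, adjusted p = 0.452. Age, sort gate, the Krt8YFP reporter and stated background differ together here and cannot be told apart. Other size factors moved the median of all genes in this comparison by 0.10 on the log2 scale, and no call of a member here changed with them. Of adhesion and barrier genes, 3 of 25 tested were higher and 19 lower (median log2 fold -2.10, all genes 0.16), with Tgm3 at 0.735 against 1977 CPM. Of mesenchymal genes, 8 of 9 tested were higher and 1 lower (median log2 fold 5.08, all genes 0.16), with Fn1 (fibronectin) at 423 against 2.98 CPM. Fibroblast markers summed to 159 to 341 CPM in the embryo and 18.4 to 109 in WT, muscle markers to 33.6 to 40.0 and 2.31 to 9.42, with all of both lists counted in both groups; their part in the result was not tested.

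**Figure D5:**
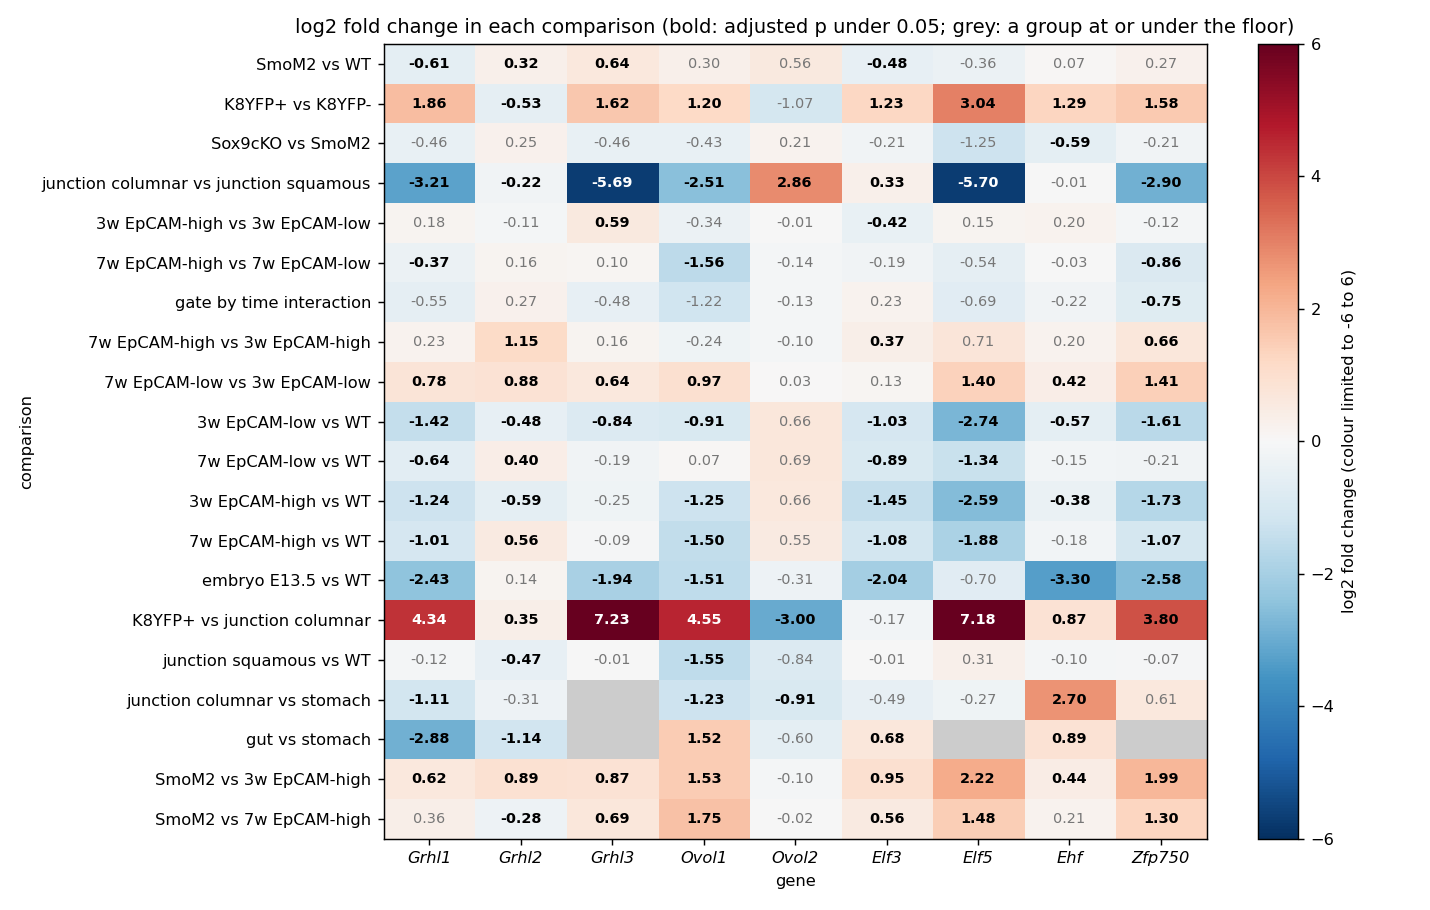
Fitted log2 fold change of each gene (columns) in each comparison (rows, first group over second); colour gives the size, bold values passed at an adjusted p under 0.05, and grey cells have a group at or under 3 counts. The strongest blue and red cells are Grhl3 and Elf5 in comparisons with junction columnar cells.

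Genes most like each member were found by Pearson r of group means of log2(CPM + 1) over the 14 groups, among 13389 genes, as a description with no test. The closest pairs were Grhl1 with Bnipl (0.972) and Cers3 (0.971), Grhl3 with Tiam1 (0.985) and Trim29 (0.984), Elf5 with Clasp1 (0.935) and Acot1 (0.934) and Zfp750 with Ppp1r14b (0.973) and Rab38 (0.968). For the rest they were Grhl2 with Agap3 (0.940) and Arl15 (0.932), Ovol1 with Ppfia3 (0.886) and Rnd3 (0.885), Ovol2 with Insig2 (0.949), Elf3 with Cblc (0.95) and Chchd10 (0.942) and Ehf with Otop3 (0.942) and Cpe (0.941). Within the set, r was 0.948 for Grhl1 and Zfp750 and 0.824 for Grhl3 and Zfp750, and -0.923 for Ovol2 and Elf5. The groups differ in tissue, gate and depth, which these values share.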

How the data were processed

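Total RNA of sorted cells was sequenced from Ovation Solo libraries on a NovaSeq, per the labels' protocols. The deposited values are read counts per gene; STAR 2.5.3a, HTSeq, edgeR and the builds GRCm38 and mm10 are named, per the submitters' processing notes, and which annotation was counted, and whether by strand, is not given in the sources used here. CPM were computed from the 51 library totals, and CPM per kilobase from GENCODE M21 exon unions. Tests on these counts used edgeR 4.0.16 under R 4.3.3 (robust quasi-likelihood F test, TMM scaling, filterByExpr with minimum count 10 and total 15); the threshold was 0.05 for p adjusted by Benjamini-Hochberg over all tested genes, two-sided, and SE is the absolute log2 fold over the root of F. Junction columnar against squamous, SmoM2 against WT, Sox9cKO against SmoM2 and the comparison of both K8YFP groups were each fitted on their own libraries, comparisons within the time series or of it with WT on those 5 groups, and the rest, with SmoM2 against the time series, on all 14 groups. Of these, 18 comparisons were planned and SmoM2 against the 3w and 7w EpCAM-high groups was added. The scripts were tested on simulated data. Alternatives were relative log expression (RLE) size factors, no filter, DESeq2 1.42.0, other sets of groups in the fit, the replicate block, summed WT pairs and leaving out libraries. Members, lists and tests were chosen with earlier results of these data known. All 9 members are named, with up to 3 called genes of the smallest adjusted p from each list and the 2 most alike genes per member; the text names some of these, and a gene alike to Ovol2 is not reported here. Lists not given values in a comparison were counted too. WT replicates 3 and 5, and 4 and 6, were nearer each other (chi-square over degrees of freedom 1.92 and 2.47) than the other 13 WT pairs (11.0 to 35.6), but differed by more than sampling noise, and were kept as 6. Whether these are the same samples run again is not given. If they are, SD and p-values with WT count those samples more than once. Replicate numbers paired the samples, by the correlation of residuals over 0.1 in every pair, for K8YFP+ and K8YFP- (0.291 to 0.409) and the 3w gates (0.140 to 0.305); no label ties numbers to animals. Totals of 1606571 to 12262365 counts per library limit low genes. Intervals and floors (3 counts) cover counting error only.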

Additional observations from a re-analysis of the deposited data

Results flagged for a closer look

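In the 3w EpCAM-low group, replicate 4 had an Elf3 level of 96.1 CPM, far from the other 3 libraries (81.8, 80.6, 82.4 CPM). It was the 1 case of a library apart among 72 gene and group pairs tested, where chance flags about 1 in 20. Elf3 in the 3w gate comparison lost its call without it, as given above. The gate difference of Zfp750 changed between 3w and 7w by -0.75 on the log2 scale (interaction, adjusted p = 0.0231), where Zfp750 was lower in EpCAM-high cells at 7w (-0.86) and near equal at 3w (-0.12). This call was lost in the fit of all 14 groups and in several fits without 1 library, as given above.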

How the results depend on the processing

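No member fold changed direction where it had passed, in any alternative run. Of the member folds, 919 of the values from other settings kept their side of the threshold, 17 came to pass and 24 no longer passed; without 1 library these were 1299, 25 and 53. The count of members passing in Sox9cKO against SmoM2 was 1, and 0 with RLE size factors and with the replicate block, 3 with DESeq2, 2 when all 14 groups were fitted and 0 to 5 without 1 library. For the 3w gates it was 2, and 0 when all 14 groups were fitted and 1 to 2 without 1 library. For the gate by time interaction it was 1, and 3 with the replicate block, 2 with DESeq2, 0 when all 14 groups were fitted and 0 to 2 without 1 library. Junction columnar against stomach gave 5, and 2 to 5 without 1 library. Gut against stomach gave 7, and 1 with the compared groups only and 4 to 6 without 1 library. The cause was not tested. The replicate block raised the genes passing among all genes in K8YFP+ against K8YFP- from 3088 to 4889 and the fit of all 14 groups to 6707. In Sox9cKO against SmoM2, 438 genes became 130 with the block, 1206 with DESeq2, 1490 with all groups and 190 to 2114 without 1 library. The fit of all 14 groups gave 1366 in place of 2592 for the 3w gates and 39 in place of 410 for the interaction, and the compared groups alone gave 2409 in place of 6903 for gut against stomach. Without 1 library, the 3w gates gave 1971 to 2220 and the interaction 306 to 407. K8YFP+ against K8YFP- gave 1061 to 2302 without 1 library, in place of 3088. For gut and for junction columnar against stomach, every such fit passed fewer genes in all than the main fit, as in most other comparisons. With no filter, K8YFP+ against K8YFP- gave 2072 higher and 1852 lower in place of 1999 and 1089. Among comparisons whose numbers pair the samples, the block changed no member call; elsewhere it changed the calls named beside the results and also those of Grhl3 at 3w EpCAM-high against WT (-0.31, adjusted p = 0.0170) and Elf3 in junction columnar against stomach (-0.50, adjusted p = 0.0369). Low counts limit Ovol2 in squamous groups and Grhl3, Elf5 and Zfp750 in columnar ones.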
